A study of Mus musculus with 17 samples.

Results

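The 33 genes described here belong to the type I interferon response. They were named by symbol as sensors, transcription factors and products of that response, with no measured value in the rule, and kept where they had a count in the corpus callosum libraries. All 33 had a count, among 58512 genes listed in the series, and 31 of them had one in each of the 9 distinct libraries. Ribosome-bound RNA was sequenced from male mice (GFAP-Cre+/- Rpl22HA/wt), which were 8 to 9 weeks of age. In these mice Cre recombinase under the Gfap promoter switches on an HA tag on the ribosomal protein Rpl22, and tagged ribosomes were pulled down from lysate of the micro-dissected corpus callosum, the white matter tract joining the hemispheres. Cuprizone mice ate 0.2% cuprizone (w/w), a copper chelator that kills oligodendrocytes, for 5 weeks. They were sampled at 5 weeks (acute demyelination), at 5.5 weeks after 0.5 weeks on normal chow (early remyelination) or at 7 weeks after 2 weeks on normal chow (late remyelination). Age-matched mock mice on normal diet, of the same genotype, were the controls of each week.

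Type I interferons are signalling proteins made when a cell senses foreign or misplaced nucleic acid. They bind the receptor Ifnar1/Ifnar2, whose kinases Jak1 and Tyk2 phosphorylate Stat proteins such as Stat2. With Irf9 these form the complex ISGF3, which binds the interferon-stimulated response element (ISRE) and switches on sensors, further transcription factors, enzymes of Isg15 conjugation and proteins that block viruses. In the brain, astrocytes and microglia can both make and answer interferon.

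The labels list 17 libraries in 6 groups, 3 per group except 2 for mock at 5 weeks, but 8 of them repeated another library of their group. Among genes with 500 or more counts, 46.6% to 96.4% of the values of such a library lay 1 to 10 counts above those of another, against at most 4.26% of values within 10 counts in the pairs that were not linked. Each set of repeats was counted as 1 library. The distinct libraries were then cuprizone 1, 2 and 3 and mock 1 and 3 at 5.5 weeks, cuprizone 1 and mock 2 at 5 weeks, and cuprizone 2 and mock 3 at 7 weeks, with 20797535 to 30400048 counts each. The 5-week libraries are batch 1 in the labels and the others batch 2, so a difference between 5 weeks and the later weeks cannot be told apart from the batch. The labels give the cells as astrocytes. All 7 astrocyte markers were detected in the 9 libraries, and markers of mature oligodendrocytes (10047 to 21628 CPM, counts normalised to library size by TMM, summed over 6 genes) and neurons (5286 to 12148 CPM over 5 genes) were detected too, so the libraries were not of astrocyte transcripts alone. The 7-week cuprizone library stood apart. It had a count for 34576 genes, against 19496 to 23980 in the other 8 libraries, and listed 674 of 1107 olfactory receptor genes, against 20 to 80.

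Promoters of 26 of the 33 genes were found by symbol in RefSeq (build GRCm38.p6), as the 250 bases before to the 50 bases after the start. The ISRE core was searched as GAAANNGAAA on both strands, so that it reads TTTCNNTTTC on the other strand, with overlapping matches counted separately, and a gene counted where any of its promoters matched. It occurred in 12 of the 26 genes (46.15%), against 3.993% of the 27025 genes with a promoter. At least 2 matches were found in 7 of the 26, against 0.266% of all genes. The element TTCNNNGAA (GAS) was in 6 of the 26 (23.1%), against 9.55% of all genes. Its matches may overlap those of the ISRE. A match describes letters in the window and is neither a shown site nor a cause.

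Windows are shown, 5′ to 3′ on the gene's strand with ISRE matches in capitals, for Isg15, for Rsad2, and for the genes whose mRNA rose at 5.5 weeks and whose match lay before the start. They lie at chr4:156200850-156200921 (minus strand, Isg15), chr19:34640760-34640838 (plus, Ifit1), chr19:34583348-34583441 (plus, Ifit3), chr8:71537562-71537627 (minus, Bst2), chr5:120907526-120907570 (minus, Oas1a), chr7:104465195-104465254 (minus, Trim30a) and chr12:26456538-26456597 (minus, Rsad2).
Isg15: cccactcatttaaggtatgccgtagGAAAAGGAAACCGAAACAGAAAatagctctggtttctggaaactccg
Ifit1: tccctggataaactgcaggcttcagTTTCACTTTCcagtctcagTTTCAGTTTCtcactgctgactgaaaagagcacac
Ifit3: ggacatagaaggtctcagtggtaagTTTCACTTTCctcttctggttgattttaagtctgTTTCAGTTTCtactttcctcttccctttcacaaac
Bst2: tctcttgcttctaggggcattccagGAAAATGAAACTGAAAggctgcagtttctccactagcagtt
Oas1a: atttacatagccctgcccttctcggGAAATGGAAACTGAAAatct
Trim30a: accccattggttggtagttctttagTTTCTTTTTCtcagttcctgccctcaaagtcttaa
Rsad2: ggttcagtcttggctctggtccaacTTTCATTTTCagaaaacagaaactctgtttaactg
Isg15 has 3 overlapping matches, 78 to 57 bases before its start, and the pairs in Bst2 and Oas1a overlap as well. The Ifit1 and Ifit3 matches are separate. The Ifit3b window (chr19:34607744-34607837, plus) has the same 94 bases as that of Ifit3, and the promoters of these neighbouring paralogs were 75% identical over 268 aligned bases. Of the 12 genes with an ISRE match, 7 were higher in cuprizone at 5.5 weeks, against 4 of the 14 without one. Ifit3 and Ifit3b, with the same window, are both among the 7. Parp9 and Parp14 were higher too but had no promoter here. Of all genes tested, 1.08% were higher, a share that was not split by match. Whether a match goes with the rise was not tested.

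At 5.5 weeks, early in remyelination, 13 of the 33 interferon response genes were higher in cuprizone corpus callosum and 0 were lower. Antiviral effectors made up most of them, with 9 of 12 called and fold changes of log2 0.96 to 1.98. The transcription factor gene Irf9, the ADP-ribosylation genes Parp9 and Parp14 and the secreted protein gene Lgals3bp were the others. The test was edgeR's quasi-likelihood F test on counts, two-sided, at a Benjamini-Hochberg adjusted p of 0.05 over all 16086 genes tested. Levels below are CPM scaled by TMM, fold changes are log2 of cuprizone over mock ± SE, and a p-value measures the spread among 5 libraries that the labels name as biological replicates. Of all genes tested, 1.08% were called higher and 0.392% lower. All 33 interferon response genes passed the filter on low counts. Their median log2 fold change was 0.84, against 0.00 for all genes tested, and 31 of 33 were above 0. In 28 of them every cuprizone library lay above both mock libraries, as in 13.2% of all genes, and in 1 every cuprizone library lay below both, as in 14.8%. At an unadjusted p of 0.05, 27 were higher and 0 lower, against 1009 higher and 746 lower of all 16086 genes tested. DESeq2 called 17 of the 33 higher and 0 lower, against 258 of all genes higher. Without mock 1 the count was 2, Oasl2 and Ifitm3, and without mock 3 it was 4. Without cuprizone 1 it was 9, with Ifit1, Samd9l, Parp9 and Lgals3bp no longer called. Ifit1 and Samd9l were not called without cuprizone 2, nor Parp9 without cuprizone 3. In a pulldown from lysate, more cells of a type, more RNA per cell and more RNA on ribosomes cannot be told apart.

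**Figure D1:**
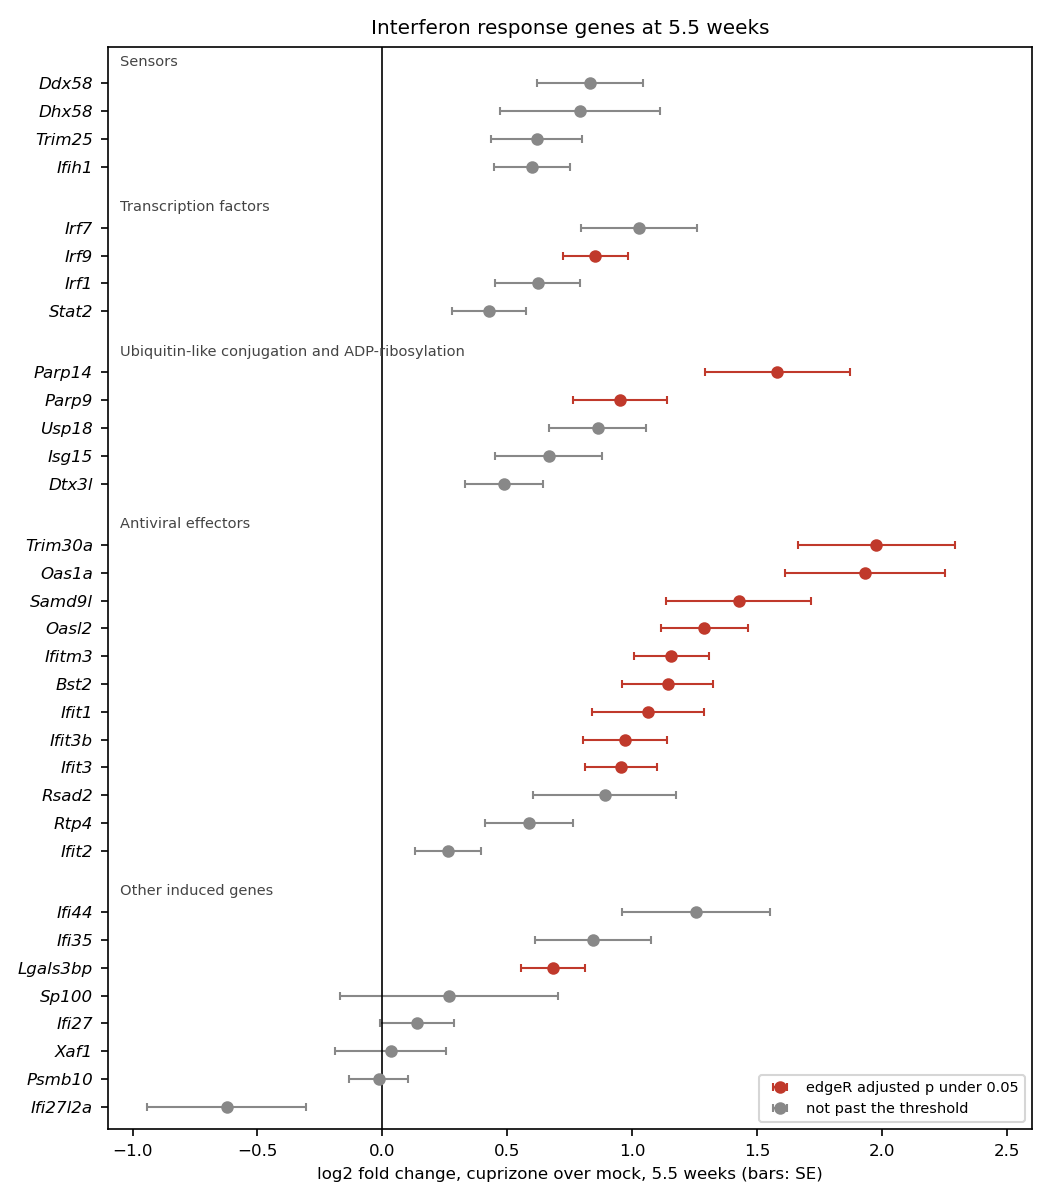
Log2 fold change of cuprizone over mock at 5.5 weeks for the 33 interferon response genes (points, bars: SE, 3 cuprizone and 2 mock libraries), grouped by role. The 13 genes called by edgeR (red) run from 0.68 for Lgals3bp to 1.98 for Trim30a, and the others (grey) include all 4 genes of the sensor group.

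Of the 4 genes in the sensor group, nucleic acid sensors and the ligase Trim25, 0 were called. All 4 had an unadjusted p under 0.05, and DESeq2 called 1. Of all 16086 genes tested, 1009 were higher at that p. Ddx58 (RIG-I, a cytoplasmic RNA sensor) had 8.51, 8.80 and 5.99 CPM in cuprizone libraries 1 to 3, against 4.05 and 4.68 CPM in mock libraries 1 and 3. Its groups did not overlap, and its log2 fold change was 0.83 ± 0.21 (edgeR adjusted p = 0.0953). Ifih1 (MDA5, a sensor of long double-stranded RNA) had a log2 fold change of 0.60 ± 0.15 (edgeR adjusted p = 0.0970), Trim25, a ubiquitin ligase acting on RIG-I, 0.62 ± 0.18 (adjusted p = 0.166), and Dhx58 (LGP2, a regulator of both sensors) 0.79 ± 0.32 (adjusted p = 0.374). In each of them all cuprizone libraries were above both mock libraries.

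Among the transcription factors, Irf9 alone was called. Irf9, the DNA-binding partner in ISGF3, had 27.3, 24.6 and 25.7 CPM in cuprizone libraries, against 13.9 and 14.7 CPM in mock libraries. The groups lay well apart, with a log2 fold change of 0.85 ± 0.13 (edgeR adjusted p = 0.00829). Stat2, its partner in that complex, had 23.0, 19.2 and 18.1 CPM in cuprizone libraries, against 14.5 and 15.4 CPM in mock libraries. Its groups did not overlap but lay closer, at 0.43 ± 0.15 (edgeR adjusted p = 0.272). Irf7, which drives interferon genes themselves, narrowly missed the threshold at 1.03 ± 0.23 (edgeR adjusted p = 0.0561), with 8.07, 8.62 and 5.26 CPM in cuprizone libraries and 3.57 and 3.60 CPM in mock libraries. Irf1 had a log2 fold change of 0.62 ± 0.17 (edgeR adjusted p = 0.127).

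In the group of Isg15 conjugation and ADP-ribosylation, 2 of 5 were called. Parp14, a mono-ADP-ribosyltransferase, had 2.5, 3.30 and 2.49 CPM in cuprizone libraries, against 0.727 and 1.11 CPM in mock libraries (log2 1.58 ± 0.29, edgeR adjusted p = 0.0204). Parp9 had 6.08, 5.73 and 6.37 CPM in cuprizone libraries, against 3.26 and 3.01 CPM in mock libraries (log2 0.95 ± 0.19, edgeR adjusted p = 0.0291). Neither gene's groups overlapped. Parp9 works with the ubiquitin ligase Dtx3l, for which the log2 fold change was 0.49 ± 0.15 (edgeR adjusted p = 0.211). These neighbouring genes overlap by 458 exonic bases on opposite strands, and whether reads were counted by strand is not given in the sources used here. Usp18, which removes Isg15 from proteins and dampens the receptor, had 25.1, 24.8 and 17.9 CPM in cuprizone libraries, against 10.3 and 14.6 CPM in mock libraries (log2 0.86 ± 0.19, edgeR adjusted p = 0.0561). Isg15 itself, the ubiquitin-like tag, had 9.39, 9.57 and 6.37 CPM in cuprizone libraries, against 4.71 and 5.94 CPM in mock libraries. Both genes had groups that did not overlap, Isg15 by a narrow margin, and the Isg15 fold change of 0.67 ± 0.22 did not pass the test (edgeR adjusted p = 0.224).

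The antiviral effectors carried most of the calls. Oasl2, of the oligoadenylate synthetase-like family, had 35.6, 30.3 and 30.9 CPM in cuprizone libraries, against 10.6 and 15.8 CPM in mock libraries. Ifitm3, a membrane protein that blocks viral entry, had 35.2, 39.9 and 32.6 CPM in cuprizone libraries, against 14.2 and 18.0 CPM in mock libraries. In both genes the lowest cuprizone library was clearly above the higher mock library. Oasl2 rose by log2 1.29 ± 0.17 (edgeR adjusted p = 0.00402) and Ifitm3 by 1.16 ± 0.15 (edgeR adjusted p = 0.00307), and these were the 2 genes of the 33 called by each of the 14 alternative analyses as well. Bst2 (tetherin, which holds budding virus at the cell surface) had 11.3, 14.2 and 10.5 CPM in cuprizone libraries, against 5.61 and 5.23 CPM in mock libraries. The mock libraries were close together and the groups apart, with a log2 fold change of 1.14 ± 0.18 (edgeR adjusted p = 0.00971).

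The Ifit genes encode proteins that bind viral RNA. Ifit3 had 83.1, 95.3 and 68.3 CPM in cuprizone libraries, against 40.7 and 44.1 CPM in mock libraries. Ifit3b had 54.7, 59.1 and 40.2 CPM in cuprizone libraries, against 23.9 and 28.4 CPM in mock libraries. Ifit1 had 28.4, 26.7 and 17.3 CPM in cuprizone libraries, against 9.56 and 13.6 CPM in mock libraries. In all 3 genes cuprizone 3 was the lowest of its group and still above both mock libraries. The log2 fold changes were 0.96 ± 0.14 for Ifit3 (edgeR adjusted p = 0.00758), 0.97 ± 0.17 for Ifit3b (edgeR adjusted p = 0.0157) and 1.06 ± 0.22 for Ifit1 (edgeR adjusted p = 0.0438). Ifit2 had 22.4, 20.3 and 19.5 CPM in cuprizone libraries and 16.7 and 17.9 CPM in mock libraries, and its log2 fold change of 0.26 ± 0.13 did not pass the test (edgeR adjusted p = 0.523). Ifit3 shares 51.2% of its 50-base exonic windows with Ifit3b, and Ifit3b 44.5% of its own with Ifit3, so how reads were split between the 2 names is uncertain.

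Several effectors of low level had the steepest fold changes. Trim30a, an interferon-induced Trim protein of mice, had 4.02, 3.70 and 2.72 CPM in cuprizone libraries, against 0.623 and 1.15 CPM in mock libraries (log2 1.98 ± 0.31, edgeR adjusted p = 0.00971). Oas1a, which makes the signal 2-5A on double-stranded RNA, had 2.06, 1.72 and 1.57 CPM in cuprizone libraries, against 0.485 and 0.445 CPM in mock libraries (log2 1.93 ± 0.32, edgeR adjusted p = 0.0114). Samd9l, an antiviral factor, had 4.36, 4.02 and 2.95 CPM in cuprizone libraries, against 1.04 and 1.78 CPM in mock libraries (log2 1.43 ± 0.29, edgeR adjusted p = 0.0331). None of these 3 had overlapping groups. Oas1a shares 57.6% of its windows with other genes, chiefly Oas1g, so its reads may include those of its paralogs. Rsad2 (viperin) had 2.30, 3.25 and 2.00 CPM in cuprizone libraries, against 1.21 and 1.48 CPM in mock libraries, and Rtp4 had 19.8, 21.1 and 15.2 CPM in cuprizone libraries, against 10.9 and 13.9 CPM in mock libraries. The groups did not overlap in either, and neither passed the test, with log2 fold changes of 0.89 ± 0.28 (edgeR adjusted p = 0.215) and 0.59 ± 0.18 (edgeR adjusted p = 0.175).

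Of the other 8 induced genes 1 was called. Lgals3bp, a secreted galectin-binding glycoprotein, had 39.4, 47.0 and 39.2 CPM in cuprizone libraries, against 25.6 and 26.5 CPM in mock libraries (log2 0.68 ± 0.13, edgeR adjusted p = 0.0229), with no overlap. Ifi44 and Ifi35 had log2 fold changes of 1.26 ± 0.30 (edgeR adjusted p = 0.0674) and 0.84 ± 0.23 (adjusted p = 0.132), also without overlap. Ifi27 and Psmb10, the most abundant of this group, did not separate. Ifi27, a mitochondrial protein gene, had 102, 117 and 95.9 CPM in cuprizone libraries and 79.4 and 112 CPM in mock libraries (log2 0.14 ± 0.15, edgeR adjusted p = 0.794). Psmb10, an immunoproteasome subunit, had 54.0, 64.8 and 54.8 CPM in cuprizone libraries and 57.5 and 59.5 CPM in mock libraries (log2 -0.02 ± 0.12, edgeR adjusted p = 0.978). Their groups overlapped, as did those of Xaf1 (log2 0.03 ± 0.22) and Sp100 (0.27 ± 0.44). Ifi27l2a was the one gene with every cuprizone library below both mock libraries, at log2 -0.62 ± 0.32 (edgeR adjusted p = 0.525).

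**Figure D2:**
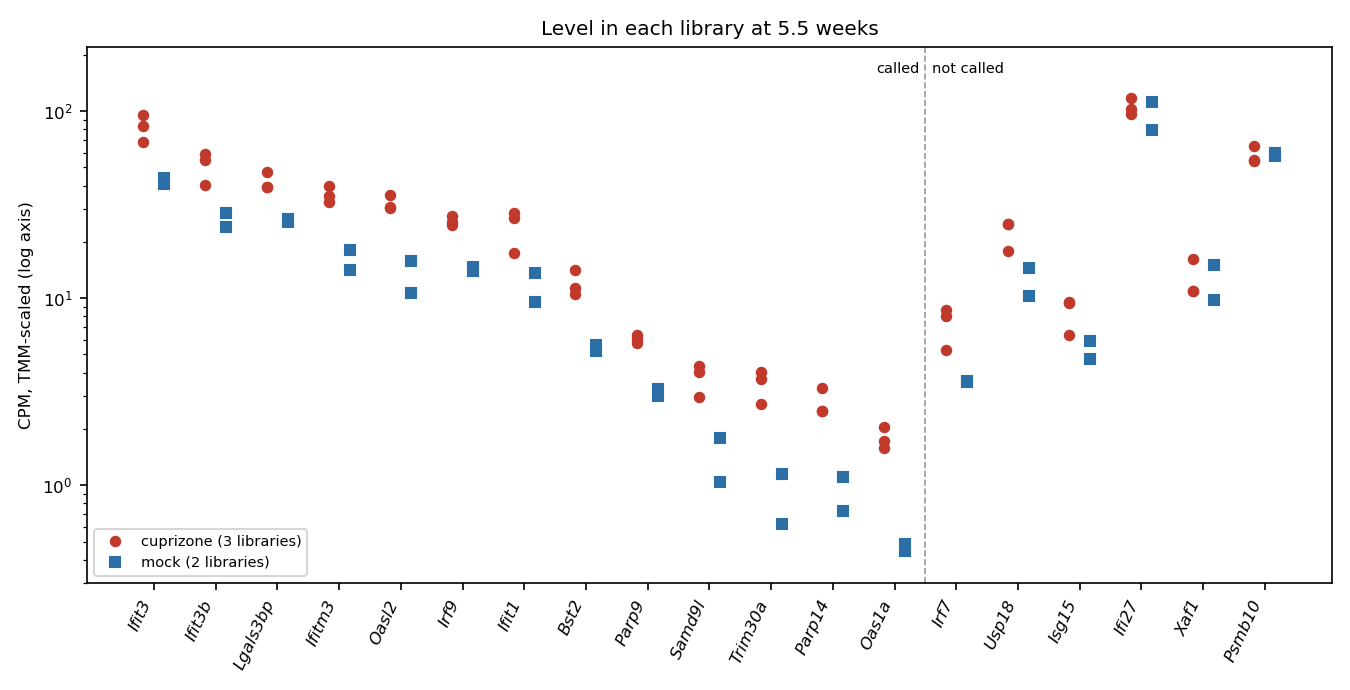
TMM-scaled CPM (log axis) in each 5.5-week library for the 13 genes called and 6 that were not, with cuprizone libraries (red circles, n = 3) left of mock libraries (blue squares, n = 2). The groups do not overlap for the 13 called genes nor for Irf7, Usp18 and Isg15, and they overlap for Ifi27, Xaf1 and Psmb10.

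Per kilobase of exon the most abundant interferon response mRNAs in cuprizone at 5.5 weeks were Ifi27 (71.6 CPM per kilobase in cuprizone and 65.1 in mock), Ifitm3 (53.0 and 23.7) and Ifit3 (47.1 and 24.3). In mock Psmb10 (33.9 in cuprizone and 34.3 in mock) was second, and 8 genes were under 1 CPM per kilobase in both groups. The lowest was Sp100, at 0.0854 CPM per kilobase in cuprizone and 0.0701 in mock. Among the 20 to 24 interferon response genes with at least 5 CPM in 1 library of a pair of the same group, 0 differed 2-fold, and the widest gap was log2 0.73, for Ifit1 between cuprizone 1 and 3. Below that level Ifi44 (1.14 and 2.52 CPM) and Sp100 (0.762 and 0.297 CPM) differed over 2-fold between mock 1 and 3. The order of the libraries was shared between genes. Cuprizone 3 was the lowest of its group in 23 of 33 (69.7%), against 30.3% of all genes tested, and mock 1 lay below mock 3 in 27 of 33 (81.8%), against 50.01% of all genes. This order is a description of 5 libraries.

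Some genes of the upstream list were called. This list has 33 genes for ligands, receptors, kinases, adaptors, sensors, transcription factors and inhibitors of signalling. Of them 23 passed the filter, 3 were called higher and 0 lower, and the median log2 fold change was 0.13. For this list and the next, the share over all genes tested was 1.08% higher and 0.392% lower. None of the listed interferon ligand genes passed the filter. Socs3, an inhibitor of Jak kinase signalling that several cytokines induce, had 6.28, 5.42 and 5.18 CPM in cuprizone libraries, against 1.63 and 1.82 CPM in mock libraries (log2 1.71 ± 0.22, edgeR adjusted p = 0.00275). Irf8, also called, encodes a transcription factor of microglia and other myeloid cells (log2 1.02 ± 0.22, edgeR adjusted p = 0.0477). Irf8 was no longer called when any single cuprizone library was left out. Among 46 further interferon-stimulated genes, 33 passed the filter, 3 were called higher and 0 lower, and the median log2 fold change was 0.45. They were Slfn8 (log2 2.08 ± 0.29, edgeR adjusted p = 0.00498), the chemokine gene Cxcl10 (1.64 ± 0.31, adjusted p = 0.0224) and Gm4951 (1.39 ± 0.30, adjusted p = 0.0494). Of the 5 genes named here Socs3 alone was still called without mock 1, and Socs3 and Slfn8 without mock 3.

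Markers of 6 cell types were measured beside these results. The 10 microglia markers summed to 42.7, 54.7 and 42.6 CPM in cuprizone libraries 1 to 3, against 30.6 and 35.9 CPM in mock libraries, with none at 0. Of the 9 that passed the filter, edgeR called 0, 5 had an unadjusted p under 0.05 and DESeq2 called 1. Of all 16086 genes tested, 1755 had an unadjusted p under 0.05. The 7 astrocyte markers summed to 8789 to 10383 CPM in cuprizone libraries, against 5239 to 5754 CPM in mock libraries. Gfap was the 1 of 7 called, at 5425 ± 577 CPM in cuprizone and 1146 ± 43.5 CPM in mock (SD, n = 3 and 2), while the other 6 lay between log2 -0.20 and 0.18 and the median of the list was -0.02. Markers of mature oligodendrocytes summed to 17691 to 21628 CPM in cuprizone libraries, against 14618 to 15271 CPM in mock libraries, and 2 of 6 were called higher, Mog (log2 0.78 ± 0.14, edgeR adjusted p = 0.0195) and Mag (0.76 ± 0.14, edgeR adjusted p = 0.0229), with 4 of 6 at an unadjusted p under 0.05. Neuronal markers had 0 of 5 called and 0 at that p, also by DESeq2. Endothelial markers stayed near the floor of the data, at 1.08 to 2.48 CPM in cuprizone libraries and 1.37 to 2.28 CPM in mock libraries, with 1 of 5 at 0 in 1 cuprizone library. Lymphocyte and plasmacytoid dendritic cell markers summed to 1.22 to 3.34 CPM in cuprizone libraries and 3.15 to 3.71 CPM in mock libraries, with 2 or 3 of 7 at 0 in cuprizone and 4 of 7 in mock. The part of the microglia, astrocyte and oligodendrocyte markers in the interferon result was not tested.

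**Figure D3:**
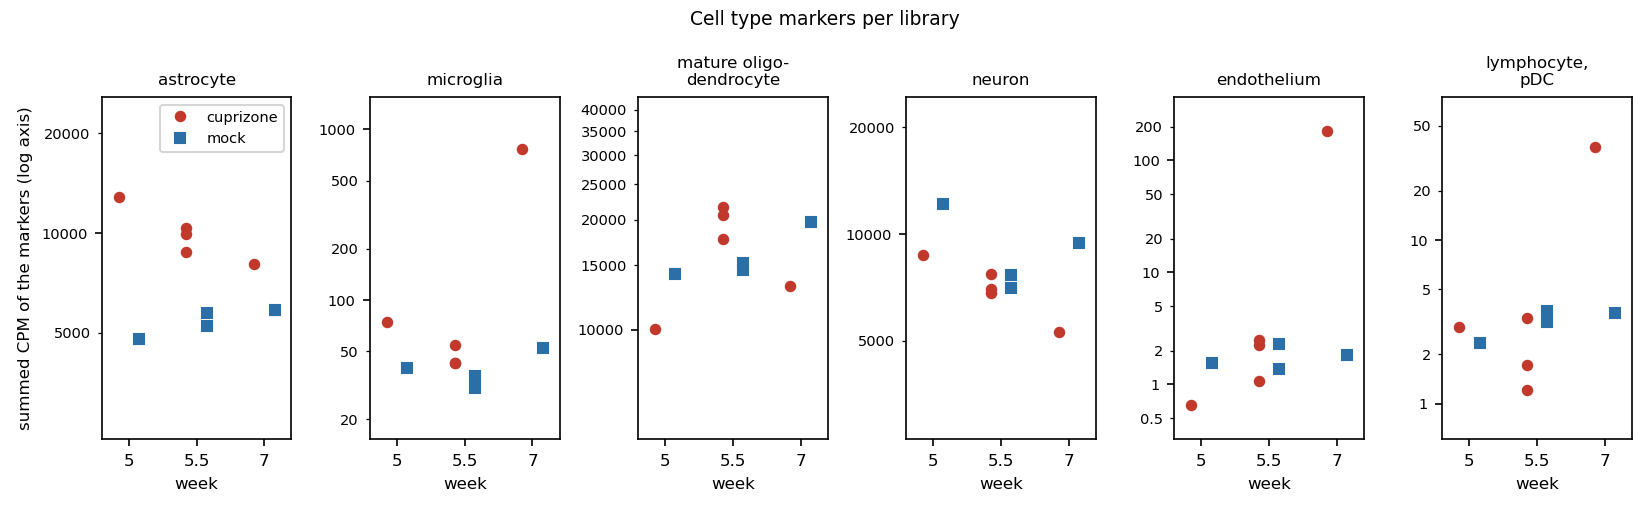
Summed TMM-scaled CPM (log axis) of the markers of 6 cell types (pDC: plasmacytoid dendritic cells) in each of the 9 distinct libraries by week, with cuprizone (red circles) left of mock (blue squares). At 7 weeks the cuprizone library has 771 CPM of microglia markers and 182 CPM of endothelial markers, against 52.2 and 1.83 CPM in the mock library.

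At 5 weeks, at the end of feeding, 1 distinct library per group has no spread of its own, so the folds are given without a test. A fit of all 9 libraries, which borrows the spread of 5.5 weeks, is among the alternatives. Of the 33 genes 26 were measured, with at least 5 CPM in at least 1 of the 2 libraries, and 10 were at least 2-fold higher in the cuprizone library and 2 at least 2-fold lower. Of the 10 genes, 2 had under 5 CPM in the mock library, Parp9 and Trim30a, and were measured only because cuprizone was high. Ifi27l2a, among the lower genes, was measured only because mock was high. Of all 11570 genes measured, 8.89% were 2-fold higher and 12.2% 2-fold lower. The median log2 ratio was 0.83 for the 26 genes, against 0.00 for all genes. Folds below are ratios of CPM with exact 95% intervals, which cover counting error only.

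The effectors again had most of the higher genes at 5 weeks. Ifitm3 had 140 CPM in the cuprizone library and 36.6 CPM in the mock library, a ratio of 3.83 (3.53 to 4.15). Oasl2 had 64.2 CPM in cuprizone and 19.3 CPM in mock, a ratio of 3.33 (2.97 to 3.73). Trim30a had 10.3 CPM in cuprizone and 1.32 CPM in mock, a ratio of 7.80 (5.22 to 12.1) on 221 and 27 counts. All 3 were also called at 5.5 weeks. Ifit3 had 139 CPM in cuprizone and 64.3 CPM in mock, a ratio of 2.16 (1.88 and 1.89 with the repeats of the cuprizone library). Ifit3b had 81.0 CPM in cuprizone and 33.1 CPM in mock, a ratio of 2.45. Ifit2 had 29.2 CPM in cuprizone and 13.8 CPM in mock, a ratio of 2.12 (1.84 to 2.44), or 2.10 and 1.85 with those repeats. Ifit1 stayed within 2-fold at a ratio of 1.71 (1.53 to 1.91).

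Genes of the sensor and conjugation groups were among the higher genes at 5 weeks as well. Ddx58 had 17.3 CPM in the cuprizone library and 7.41 CPM in the mock library (ratio 2.33, 1.93 to 2.84), and Trim25 had 16.7 CPM in cuprizone and 7.17 CPM in mock (ratio 2.34, 1.92 to 2.85). Parp9 had 9.30 CPM in cuprizone and 2.58 CPM in mock (ratio 3.60, 2.65 to 4.97). Its partner Dtx3l had 12.3 CPM in cuprizone and 5.80 CPM in mock (ratio 2.12, 1.70 to 2.66), within 2-fold with the repeats (1.90 and 1.86). None of the 4 transcription factors reached 2-fold, and Irf9, called at 5.5 weeks, had 44.7 CPM in cuprizone and 40.6 CPM in mock. The genes lower at 5 weeks were Lgals3bp and Ifi27l2a. Lgals3bp had 21.8 CPM in cuprizone and 50.9 CPM in mock, 2.33 times as high in mock (2.09 to 2.61), the opposite side from 5.5 weeks. Against the repeat of the mock library it was within 2-fold, at log2 -0.93. Ifi27l2a had 2.46 CPM in cuprizone and 7.85 CPM in mock, 3.19 times as high in mock (2.32 to 4.43).

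Of the 7 genes under 5 CPM at 5 weeks, Dhx58 had 23 counts in cuprizone and 47 in mock, Oas1a 29 and 58, Rsad2 37 and 61, Ifi44 76 and 47, and Parp14 7 and 0. The repeats of that cuprizone library list more: 40 and 57 for Dhx58, 61 and 70 for Oas1a, 84 and 47 for Rsad2, 145 and 174 for Ifi44, and 60 and 123 for Parp14. Samd9l had 68 counts in the cuprizone library and 1 in the mock library, and Sp100 had 84 and 0, where the repeat of the mock library lists 68 for Samd9l and 30 for Sp100. The repeats differ by over 1.5 times or turn the direction, so no fold or direction is given for these 7 genes at 5 weeks. Other genes of the pathway at 5 weeks split in direction. Of 15 upstream genes measured 4 were 2-fold higher (Socs3, 8.46 CPM in cuprizone and 0.488 in mock, with Ticam1, Jak2 and Mavs) and 2 were 2-fold lower (the receptor genes Ifnar2, 6.74 and 16.3 CPM, and Tlr3, 4.88 and 13.1 CPM). Of 17 further interferon-stimulated genes 7 were higher and 0 lower, among them Slfn9 (166 counts in cuprizone and 0 in mock), Mov10 (5.72 CPM in cuprizone and 0.488 in mock), Lgals9 (29.2 and 6.19 CPM) and Tor3a (33.5 and 11.9 CPM). Socs3, Ticam1, Slfn9, Mov10, and Gm4951 and Ifitm2 of the further list were measured only because cuprizone was high. Tlr3 was measured only because mock was high. Socs3, Slfn9 and Mov10 had at most 10 counts in the mock library, and their values in its repeat are not given here. Microglia markers summed to 73.9 CPM in the cuprizone library, with 1 of 10 at 0, and 39.98 CPM in the mock library, with 2 of 10 at 0, and 4 of 6 measured were 2-fold higher. Endothelial markers were near 0, at 0.651 CPM in cuprizone and 1.56 CPM in mock. The part of the microglia markers was not tested.

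At 7 weeks 29 of the 33 genes were measured, and 11 were at least 2-fold higher in the cuprizone library and 0 lower. Of all 12173 genes measured, 9.90% were 2-fold higher and 5.54% 2-fold lower. The median log2 ratio was 0.71 for the 29 genes, against -0.23 for all genes. Scaling by library totals in place of TMM moved the median of all genes by 0.43 and the count of higher interferon response genes to 20. Of the 11 genes, 9 had under 5 CPM in the mock library and were measured only because cuprizone was high. Among the 20 genes with at least 5 CPM in both libraries 2 were 2-fold higher, Bst2 and Lgals3bp, against 3.99% of all such genes, and their median was 0.53, against -0.28.

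Bst2 had 17.7 CPM in the 7-week cuprizone library and 7.29 CPM in the mock library, a ratio of 2.42 (2.05 to 2.88). Lgals3bp had 60.0 CPM in cuprizone and 29.4 CPM in mock, a ratio of 2.04 (1.87 to 2.22), so its sign was that of 5.5 weeks and not that of 5 weeks. With either repeat of the cuprizone library it was within 2-fold, at 1.80 and 1.82. Irf7 had 14.4 CPM in cuprizone and 3.81 CPM in mock, a ratio of 3.78 (3.04 to 4.76). Among the factors Irf7 was the one past 2-fold, while Irf9 had 25.6 CPM in cuprizone and 18.2 CPM in mock. Trim30a had 9.02 CPM in cuprizone and 1.11 CPM in mock (ratio 8.15, 5.54 to 12.4). Parp14 had 6.50 CPM in cuprizone and 0.915 CPM in mock (ratio 7.10, 4.63 to 11.4), and Parp9 had 7.94 and 3.55 CPM (ratio 2.24). Rsad2 had 6.22 CPM in cuprizone and 1.07 CPM in mock (ratio 5.83, 3.90 to 9.02). Sp100, a nuclear body protein, had 9.997 CPM in cuprizone and 0.305 CPM in mock, 286 and 8 counts. In the 5.5-week libraries Sp100 was between 0.297 and 0.762 CPM. Samd9l (ratio 3.32), Ifi35 (2.77) and Ddx58 (2.15, or 1.96 and 1.95 with the repeats of the cuprizone library) completed the 11. The Ifit genes were within 2-fold, with ratios of 1.5 for Ifit3, 1.24 for Ifit3b, 1.74 for Ifit1 and 1.14 for Ifit2, and so were Oasl2 at 1.86 and Ifitm3 at 1.83. Under 5 CPM, Oas1a had 133 counts in cuprizone and 23 in mock, Dhx58 126 and 31, Ifi44 108 and 66, and Ifi27l2a 69 and 55.

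Markers of other cells were far higher in the same 7-week cuprizone library. All 10 microglia markers were over 2-fold higher, with a sum of 771 CPM in cuprizone and 52.2 CPM in mock and none at 0 in either. All 5 endothelial markers were higher, at 182 CPM in cuprizone and 1.83 CPM in mock. Lymphocyte and plasmacytoid dendritic cell markers summed to 37.3 CPM in cuprizone and 3.59 CPM in mock, with 5 of 7 at 0 in mock and none in cuprizone. Olfactory receptor genes summed to 75.35 CPM (by library total) in this library, against 11.4 to 22.2 CPM in the other 8. Of 20 upstream genes measured 7 were higher and 0 lower, led by genes of myeloid cells such as Tlr7 (5.17 CPM in cuprizone and 0.0381 CPM in mock), Irf5 (12.5 and 0.572 CPM), Tmem173 (6.75 and 0.534 CPM) and Irf8 (32.0 and 2.71 CPM). Of 19 further interferon-stimulated genes measured 9 were higher and 0 lower, among them Slfn5 (5.17 CPM in cuprizone and 0.267 CPM in mock) and Ddx60 (7.87 and 0.763 CPM). The genes named from both lists were under 5 CPM in the mock library and were measured only because cuprizone was high. So were Socs3, Uba7, Parp10, Mov10, Gm4951 and Rnf213, while Ifngr1, Tyk2, Parp12 and Lgals9 had at least 5 CPM in both libraries. Tlr7 had 1 count in the mock library and Slfn5 had 7. With 1 distinct cuprizone library at 7 weeks, the response of the mice and the makeup of that library cannot be told apart.

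**Figure D4:**
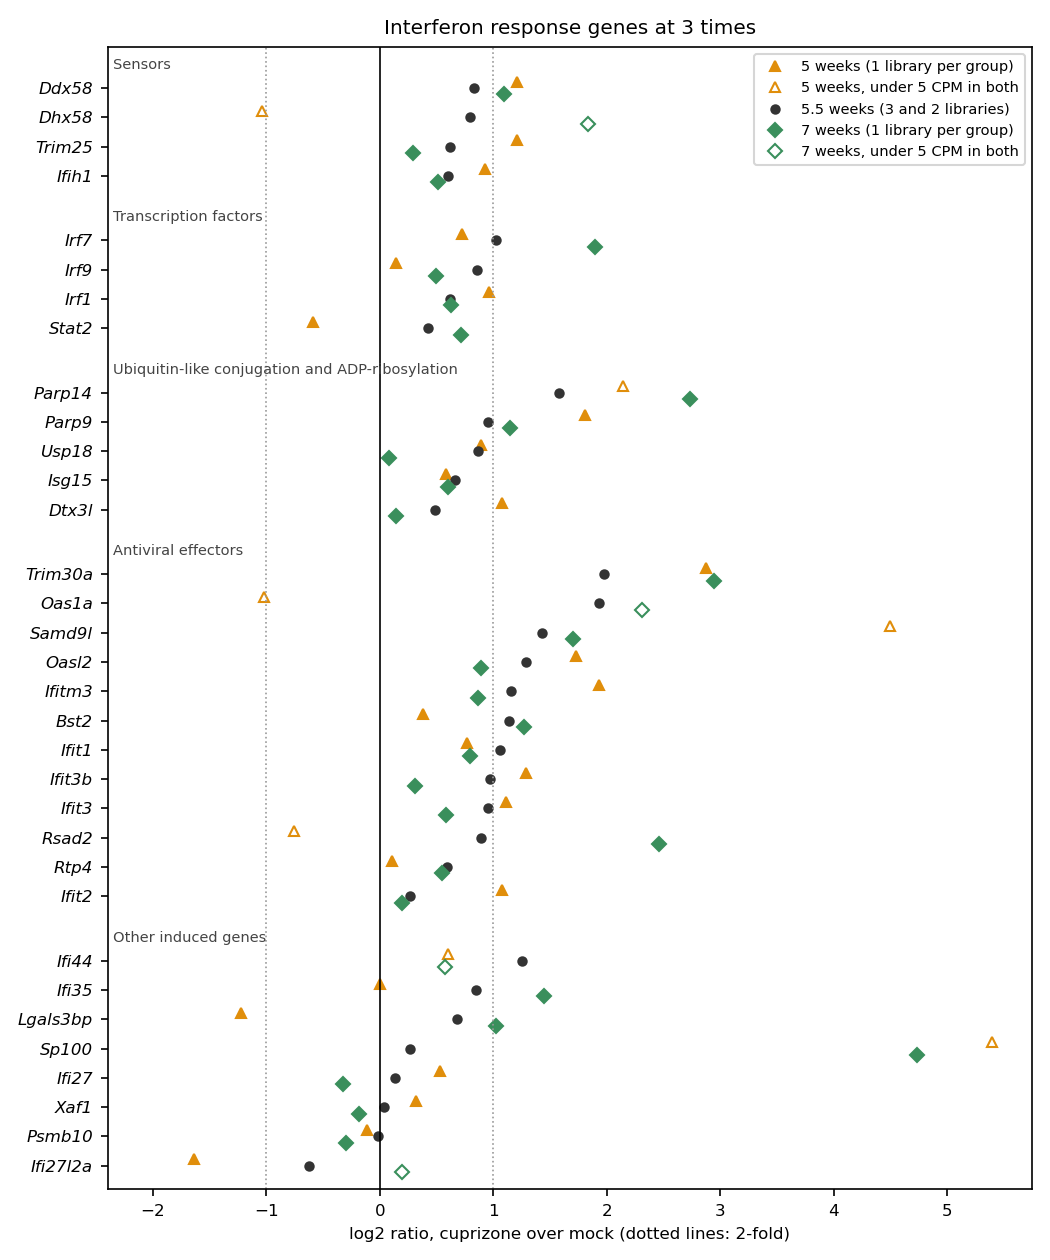
Log2 ratio of cuprizone over mock for each interferon response gene at 5 weeks (triangles), 5.5 weeks (circles) and 7 weeks (diamonds), with open symbols where both libraries were under 5 CPM. Trim30a lies above 1.9 at all 3 times, Lgals3bp is below 0 at 5 weeks and above 0 later, and Rsad2 and Sp100 are far higher at 7 than at 5.5 weeks.

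Across the weeks 3 genes were 2-fold higher at both 5 and 7 weeks, Ddx58, Parp9 and Trim30a, which is 30% of those higher at 5 weeks and 27.3% of those higher at 7 weeks, against 17.01% and 14.5% over all genes. All 3 were under 5 CPM in the 7-week mock library. Parp9 and Trim30a were also called at 5.5 weeks. Each week has its own mock libraries. The difference between the cuprizone effects at 7 and 5.5 weeks, both batch 2, was tested as an interaction in edgeR over the 9 distinct libraries and 20292 genes, with the lone 7-week libraries assumed to vary like those of 5.5 weeks. Of all genes 10.3% had a larger effect at 7 weeks and 6.92% a smaller one at an adjusted p of 0.05. Among the 33 genes 2 had a larger effect and 0 a smaller one. Sp100 differed by log2 4.84 ± 0.70 (edgeR adjusted p = 0.000142) and Rsad2 by 1.74 ± 0.52 (edgeR adjusted p = 0.0271). The Rsad2 difference was no longer called without mock 1 of 5.5 weeks (adjusted p = 0.0536) or without mock 3 (adjusted p = 0.0740). A share of 2 in 33 is no higher than that of all genes. For Oasl2 the difference was -0.30 ± 0.30 (edgeR adjusted p = 0.522) and for Ifitm3 -0.19 ± 0.26 (adjusted p = 0.643), which neither shows a change between the weeks nor that there was none.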

How the data were processed

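Ribosome-bound RNA of 17 libraries was counted per Ensembl gene. The deposited values are whole-number counts made with FastQC 0.11.9, STAR 2.5.4b and featureCounts 1.6.0, per the submitters' processing notes, which name 2 mouse builds (GRCm38 or mm10, and GRCm39 or mm39) but not the one used for each library, so coordinates are given for promoters alone. Symbols came from GENCODE M21, which named 99.4% of the identifiers of batch 1 and 94.0% of those of batch 2. Libraries were called repeats where over 40% of genes with 500 or more counts lay within 10 counts, and the one with the lowest total was kept.

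At 5.5 weeks counts were filtered (filterByExpr, minimum count 10), scaled by TMM and tested with edgeR 4.0.16 (robust quasi-likelihood, R 4.3.3) after a check on simulated data. DESeq2 1.42.0 was an alternative. At 5 and 7 weeks log2 ratios used a prior count of 2, with Clopper-Pearson intervals of the count ratio at 95% confidence. Exon lengths and shared windows came from GENCODE models. All genes were accounted for. Values per library were given for the genes called at 5.5 weeks and the 6 most abundant not called, with others added after their values were seen (Ddx58, Irf7, Isg15 and Rsad2), and at 5 and 7 weeks for those at least 2-fold different. Of the upstream and further lists, genes called or among the largest ratios were named, and 1 gene called at 5.5 weeks is not reported here. The genes and lists were chosen with earlier results of these data known. Alternatives covered scaling, filters, repeats, each library left out and a replicate block.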

Additional observations from a re-analysis of the deposited data

Results flagged for a closer look

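For 2 of the 33 genes the cuprizone effect differed between 7 and 5.5 weeks by the test of the difference. For Sp100 it was larger at 7 weeks by log2 4.84 (edgeR adjusted p = 0.000142, with 6.87e-10 to 0.0116 over the alternatives), and for Rsad2 by log2 1.74 (edgeR adjusted p = 0.0271, with 0.00141 to 0.113 over the alternatives). Both rest on a lone 7-week library per group, assumed to vary like those of 5.5 weeks, and the cuprizone one also had the highest microglia, endothelial and olfactory receptor signal. The part of those signals was not tested.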

How the results depend on the processing

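In place of 13 interferon response genes called higher at 5.5 weeks, the count was 21 with no filter on low counts, 20 with the 6 libraries as deposited and 25 in a fit of all 17 libraries, and leaving out 1 library gave 2 to 15. Other scaling, DESeq2, a filter of 1 CPM and the mean of the repeats kept it within 1.5 times, and 0 were called lower in all of them. Over all genes the 173 higher and 63 lower calls became 381 and 162 with no filter, 100 and 36 with a filter of 1 CPM in all 5 libraries, and 614 and 175 in the fit of 17 libraries. The 6 libraries as deposited gave 314 higher, and leaving out 1 library gave 49 to 189 higher and 16 to 85 lower (57 and 31 without mock 1, 49 and 16 without mock 3, 113 and 17 without cuprizone 1, 24 lower without cuprizone 3).

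For same-numbered cuprizone and mock libraries the correlations of their deviations were 0.039 and -0.080, over 2 pairs. With 2 distinct mock libraries the deviations of 1 mirror those of the other, so these values cannot decide whether libraries were paired. With the replicate block the count of interferon response genes was 17, that of all genes 481 higher and 269 lower, and that of genes whose effect differed between 7 and 5.5 weeks 1. That last count was 10 in the fit of 17 libraries and 1 to 3 with 1 library left out.

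At 5 weeks the 10 higher genes became 16 calls in the fit of 9 libraries and 22 in that of 17, and the 2 lower genes became 4 at a minimum of 1 CPM, 1 with 5 CPM in both libraries and 1 against the repeat of the mock library. At 7 weeks the 11 higher genes became 20 with library totals, 17 at 1.5-fold, 19 calls in the fit of 9 libraries, 28 in that of 17 and 2 with 5 CPM in both libraries. The minimum of 5 CPM in both and the exchange of single repeats were chosen after seeing the data. At 5.5 weeks, gene by gene, 378 alternative values kept the side of the threshold, 32 lost a call, 46 gained one and 0 calls reversed. Exchanging a repeat turned the sign of the ratio for 6 genes at 5 weeks (3 measured, within log2 0.34 of 0, and 3 under 5 CPM) and 2 at 7 weeks, and brought 4 of the 12 genes 2-fold apart at 5 weeks and 2 of the 11 at 7 weeks within 2-fold. The cause of these changes was not tested.

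With 3 and 2 libraries at 5.5 weeks, and 1 per group at 5 and 7 weeks, the number of libraries limits the precision, and for genes under 5 CPM the counts do so as well.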
